A study of Mus musculus with 6 samples.

Results

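The 65 genes described here encode the nuclear share of complexes II to V of oxidative phosphorylation, cytochrome c, and proteins that build these complexes. They were taken from the 21878 gene symbols of the table by name alone: Sdha to Sdhd, symbols that begin with Sdhaf, Uqcr, Atp5 or with Cox and a digit, and Cyc1, Cycs, Sco1, Sco2 and Surf1. By role, 38 were subunits, 17 were assembly factors, 7 were isoforms of complex IV subunits known from other tissues, and 1 was cytochrome c. The remaining 2 carry the name only in part: Atp5s encodes coupling factor B, and Atp5sl is known as an assembly factor of complex I. By complex, 8 genes belonged to complex II, 9 to complex III, 30 to complex IV and 16 to complex V. The subunits encoded by mitochondrial DNA were not analysed here.

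Oxidative phosphorylation passes electrons along carriers in the inner mitochondrial membrane and uses the proton gradient this creates to make ATP. Complex II (succinate dehydrogenase) feeds electrons from succinate into the ubiquinone pool, complex III hands them to cytochrome c, and complex IV (cytochrome c oxidase) reduces oxygen. Complex V is the ATP synthase. Subunits end up in the finished enzyme, whereas assembly factors insert heme, copper, flavin or iron-sulfur centres or join partly built modules. Neurons depend on this pathway for most of their ATP.

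RNA had been sequenced from HT22 cells, an immortalized mouse line of hippocampal origin, in 3 control libraries and in 3 libraries (the Al group) from cells given 120 µM aluminum maltolate, the complex of aluminum with the chelator maltol. The dose is from the methods and not from the sample labels. Treatment in the methods lasted 24 h, but for the sequenced cells they give no number of hours. No genetic modification is given for either group. The methods name a control in medium alone apart from one given maltol, so that the sequenced control, labelled by C, is by name the former. All 6 were input libraries of an m6A immunoprecipitation, that is, fragmented RNA without enrichment, and the study set them up to ask which transcripts respond to aluminum. Values are FPKM (fragments per kilobase of transcript, relative to library size), divided here by a size factor for each library and called scaled FPKM. A gene was called higher or lower where limma gave an unadjusted P under 0.05 and the log2 fold change (Al over control) was past 0.58 in size, the thresholds of the study. Fold changes are on the log2(scaled FPKM + 0.1) scale, which understates changes of low genes. The recovered depth was 37768842 to 44220124 reads on genes in the control group and 20973691 to 26487603 in the Al group. Of 11 neuron markers only Tubb3 had a mean of at least 1 FPKM, and Snap25 and Nefm stood at 0 in all 6 libraries. Of 6 fibroblast markers 5 passed 1 FPKM, with summed levels of 2075 to 3352 scaled FPKM in control and 3580 to 5116 in Al libraries (2437 to 3972 and 2916 to 4105 FPKM as deposited), so the labelled cell type was not borne out by its defining markers. The collagens carried this sum: Col1a1 was called higher (0.92), whereas Lum (-2.28), Dcn (-1.64) and Pdgfra (-1.22) were called lower. Of 4 tested astrocyte markers Gja1 (1.20) was called higher and Slc1a3 (-2.96) lower. Of 4 tested microglia markers Cx3cr1 (2.14) was called higher, and of 2 tested oligodendrocyte markers Sox10 (2.29), both below 1 scaled FPKM in the mean of either group. The microglia marker Tmem119, at 36.5 scaled FPKM in control and 50.7 in the Al group, was not called (0.25). The part of all these markers in the results was not tested. The neuron markers summed to 4.67, 4.97 and 4.99 scaled FPKM in control and 5.13, 3.35 and 4.59 in Al libraries, which overlapped. As deposited the sums did not overlap, at 5.53 to 6.004 FPKM in control and 2.73 to 4.28 in Al libraries. With size factors neither of the 2 tested neuron markers was called, but Tubb3 was past the size threshold in FPKM as deposited (-0.66) and in TPM (-0.95). In these bulk samples, a change in the number of cells of a type and a change of RNA per cell cannot be told apart.

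Scaled by size factors, most tested genes of complexes III, IV and V were called higher after aluminum, while complex II and the assembly factors were mixed. TPM are length-corrected levels that are forced to the same sum in every library. In TPM 5 members were called higher and 17 lower, against 9.31% and 53.1% of all tested genes. Of the 65 genes, 62 passed the filter on low values (a mean of 0.1 FPKM), and Sco2, Cox7b2 and Cox8c stood at 0 reads in all 6 libraries and were not tested. Of the 62, 34 were called higher and 4 lower, against a background of 26.2% called higher and 24.4% called lower among all 12889 tested genes. Only Cyc1, Sdhaf2, Sdhaf3 and Atp5s fell. The counts were 34 and 4 also with a Benjamini-Hochberg adjusted P under 0.05, where the background was 25.5% and 23.7%. The median log2 fold change of the 62 genes was 0.71, and that of all tested genes was 0.03. Every Al library lay above every control library for 34 of the genes and below for 4, beside 35.1% and 33.1% of all tested genes (68.1% in either direction).

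**Figure D1:**
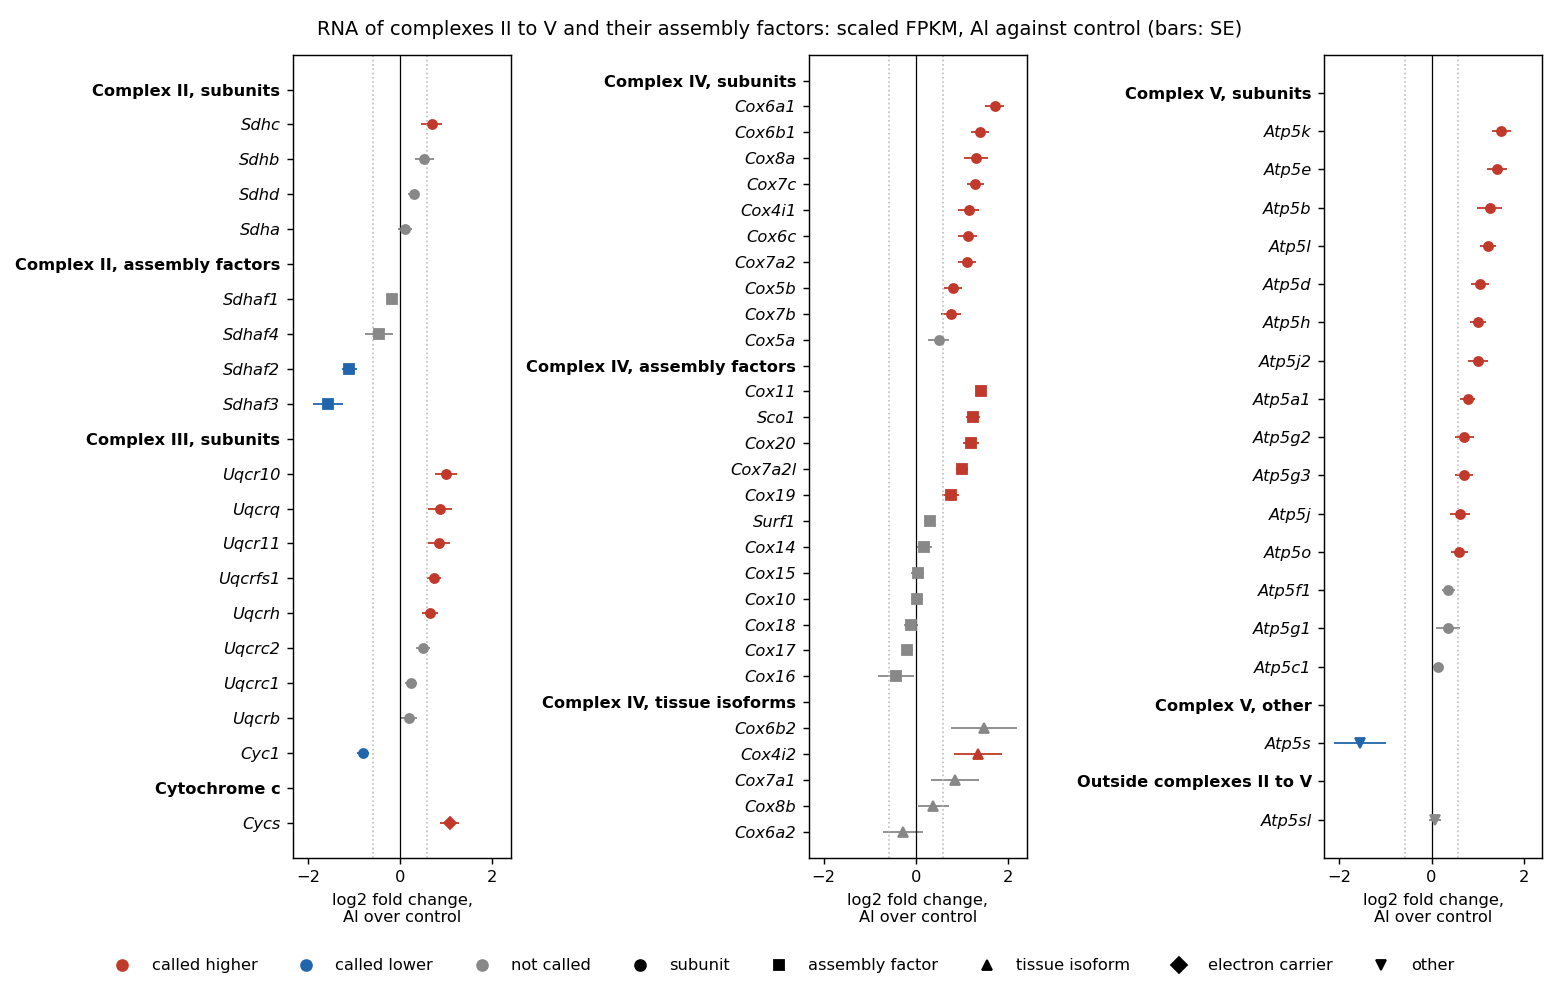
Log2 fold change (Al over control, scaled FPKM, horizontal axis) of the 62 tested genes, ordered within each complex and role; bars are SE, dotted lines mark 0.58 in either direction, colour gives the call and shape the role. Complex IV and V subunits sit to the right of 0, with medians of 1.13 and 0.78 (0.35 and -0.0027 in TPM), while the 4 assembly factors of complex II and Cyc1 sit to the left.

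The rise was smaller in 1 Al library than in the others. Summed over the 65 genes, scaled FPKM reached 5993, 6414 and 6799 with control cells and 15149, 14222 and 9348 after Al. Relative to the control mean, the median subunit stood at -0.11, 0.01 and 0.09 (log2) across control libraries, but at 1.04, 0.96 and 0.31 in Al replicates 1, 2 and 3. Al replicate 3 was thus nearest to control. It was the lowest Al library for 27 of the 27 subunits called higher and for 32 of the 34 members called higher, against 54.8% of all 3375 genes called higher. Without it, 38 members were called higher and 4 lower (background 27.1% and 25.7%), and the subunit median was 1.0 in place of 0.78. Without Al replicate 1 the counts were 28 and 6 (background 26.0% and 23.4%), with a subunit median of 0.64.

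**Figure D2:**
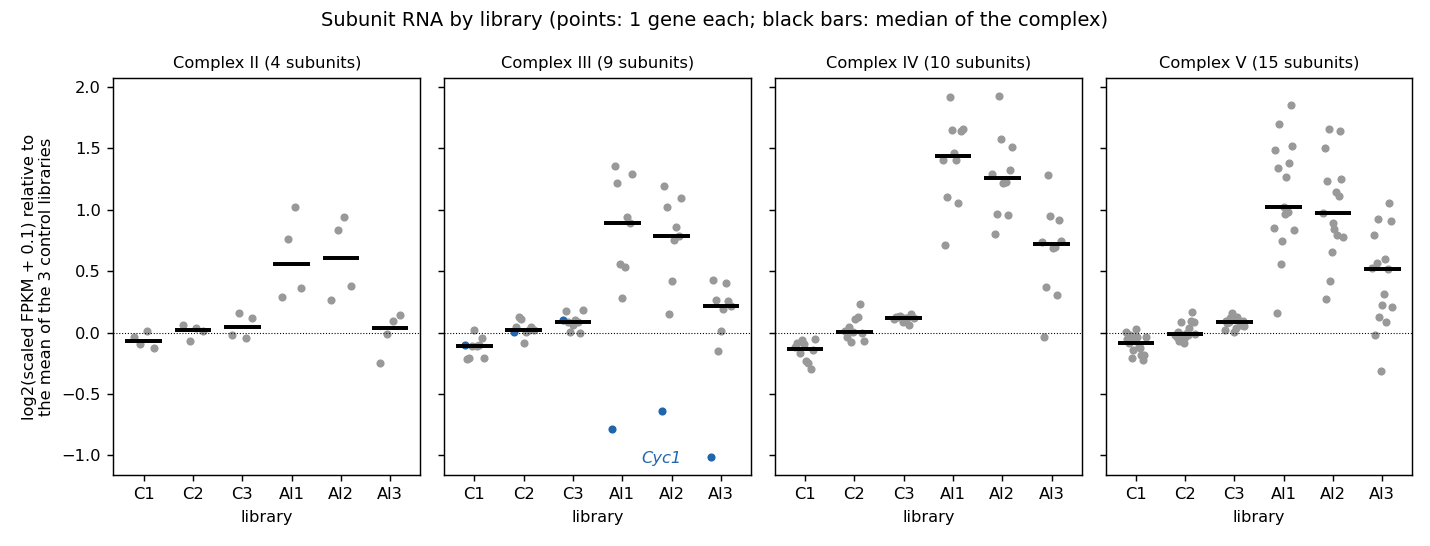
Level of each subunit in each library, as log2(scaled FPKM + 0.1) relative to the mean of the 3 control libraries (vertical axis); each point is a gene, black bars are the median of the complex, C is control and Cyc1 is blue. In Al replicate 3 the medians were 0.04, 0.22, 0.72 and 0.51 for complexes II, III, IV and V, below the other Al libraries in each panel.

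Promoters of these genes are well known for binding sites of NRF1 (nuclear respiratory factor 1), of ETS factors such as GABP (also called NRF-2), and of YY1. RefSeq promoter windows, from 250 bases before to 50 bases after the annotated start on GRCm38.p6, matched 52 of the 65 genes. The NRF1 letters, GCGCA, 1 base of any kind and GCGC, were read like the others on both strands. They stood in a window of 12 of the 52 genes (23.1%), and of 5.19% of all 27025 genes with one. A gene counted if any of its windows held the letters, so genes with more annotated starts had more chances to match. The ETS letters CCGGAAG stood in 22 (42.3%), against 9.93% of all genes, and the YY1 letters AAGATGGC in 6 (11.5%), against 3.19%. Matches of different motifs may overlap, and a match is no record of binding. The NRF1 letters were present in 6 of 28 genes called higher, 1 of 3 called lower and 5 of 19 not called, and the ETS letters in 12, 2 and 8 of the same sets. With size factors the complex IV subunit Cox6a1 and the complex V subunit Atp5k had the highest log2 fold changes in their complexes. The complex II assembly factor Sdhaf3 had the lowest of all members. The following 30-base stretches, in sense of the gene with the motif in capitals, show that genes that moved in opposite directions carry the same letters:
Cox6a1 NRF1 (chr5:115349101-115349130, minus strand): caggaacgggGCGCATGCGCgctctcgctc
Cox6a1 NRF1 (chr5:115349056-115349085, minus strand): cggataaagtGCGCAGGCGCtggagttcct
Cox6a1 ETS (chr5:115348956-115348985, minus strand): ccccatttccgCTTCCGGcgcgccggtgta
Atp5k NRF1 (chr5:108434430-108434459, minus strand): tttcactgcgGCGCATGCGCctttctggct
Atp5k ETS (chr5:108434369-108434398, minus strand): cctcagttgagCTTCCGGcgcgaaggtcac
Sdhaf3 ETS (chr6:6955880-6955909, plus strand): aatccgggtttCCGGAAGgacaagattcta
Sdhaf3 NRF1 (chr6:6956001-6956030, plus strand): cccaccttctGCGCAGGCGCggcgcgatgc
Cox6a1 held both NRF1 matches upstream of the annotated start, beginning at -162 and -117, and Sdhaf3 held 1 that began at -7. The ETS match of Sdhaf3 was in the sense direction, and those of Cox6a1 and Atp5k were on the opposite strand, where CCGGAAG reads CTTCCGG. Sdha, which was not called, had 3 NRF1 matches, at -98, -55 and -10.

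In complex II, 1 of 8 genes was called higher and 2 lower, counts too small to set apart from the background of 26.2% and 24.4%, and the median log2 fold change was -0.04. On this scale its subunits and assembly factors lay on opposite sides of 0, with medians of 0.41 and -0.78, whereas in FPKM as deposited (-0.08 and -1.26), in TPM (-0.38 and -1.55) and after quantile normalization (-0.08 and -0.57) both medians were negative. Sdha carries the flavin that oxidizes succinate, Sdhb the iron-sulfur clusters, and Sdhc and Sdhd anchor the enzyme in the membrane. Sdha had 57.7, 61.8 and 58.2 scaled FPKM in control and 72.4, 71.2 and 49.7 in Al libraries, a log2 fold change of 0.10 ± 0.15 (SE) that did not pass. Sdhc was the only subunit of the complex that rose, from 67.5, 68.8 and 64.9 to 136, 129 and 71.5 scaled FPKM, with Al replicate 3 just above the control libraries (log2 fold change 0.68 ± 0.22, adjusted P = 0.0248), and in TPM its log2 fold change was -0.10. It was not called without Al replicate 1 (0.52) or without Al replicate 2 (0.56). Sdhb (0.52) and Sdhd (0.29) were not called. Sdhb was called higher without control replicate 3 (0.59) and without Al replicate 3 (0.81).

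All 4 assembly factors of complex II had negative log2 fold changes, as had 6304 of the 12889 tested genes, and 2 of them fell, against 24.4%. Sdhaf2 (chromosome 19, 10500534 to 10526142, minus strand on GRCm38), which helps attach the flavin to Sdha, had 10.9, 9.51 and 10.1 scaled FPKM in control and 3.65, 5.39 and 5.15 in Al libraries. Its groups lay far apart (log2 fold change -1.10 ± 0.16, adjusted P = 0.000445). Sdhaf3 (chromosome 6, 6956004 to 7042979, plus strand), which with Sdhaf1 guards the iron-sulfur clusters of Sdhb, went from 4.56, 4.43 and 2.33 to 1.53, 0.715 and 1.38 scaled FPKM and rested on few reads, 113, 128 and 67 in control and 18, 7 and 15 in Al libraries. The lowest control library was still above the highest Al library (log2 fold change -1.57 ± 0.33, adjusted P = 0.00341). Sdhaf1 had 11.2, 11.6 and 10.97 scaled FPKM in control and 10.5, 10.6 and 8.82 in Al libraries. These groups did not overlap, but the log2 fold change of -0.18 ± 0.11 did not pass, while in FPKM as deposited (-0.66) and in TPM (-0.96) the gene was called lower. Sdhaf4, which helps join Sdha to Sdhb, overlapped between groups (4.06, 5.999 and 5.02 against 6.10, 3.12 and 2.44 scaled FPKM) and was not called at -0.45. It was called lower without Al replicate 1 (-0.82), in FPKM as deposited (-0.93), in TPM (-1.22) and with the length trend removed (-0.85). The calls for Sdhaf2 and Sdhaf3 held under each alternative run.

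In complex III, 5 of 9 subunits rose and 1 fell, against 26.2% and 24.4% of all tested genes, with a median log2 fold change of 0.65, which was -0.14 in TPM. The highest changes were those of 3 small supernumerary subunits. Uqcr10 had 123, 147 and 161 scaled FPKM in control and 366, 326 and 191 in Al libraries (log2 fold change 0.99 ± 0.24, adjusted P = 0.00629). Uqcrq followed at 0.87 ± 0.26 and Uqcr11 at 0.83 ± 0.24, and both were lowest in Al replicate 3. The Rieske iron-sulfur protein Uqcrfs1 rose by 0.73, and the hinge protein Uqcrh by 0.65, with -0.05 and -0.14 in TPM. Uqcrh was not called without Al replicate 1 (0.53). The core proteins Uqcrc1 (0.24) and Uqcrc2 (0.50) and the small subunit Uqcrb (0.19) were not called. Uqcrc2 was called higher without Al replicate 3, at 0.66.

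Cyc1 (chromosome 15, 76343523 to 76346260, plus strand) encodes cytochrome c1, the heme protein of complex III that passes electrons to cytochrome c, and it was the only one of the 38 subunits that fell. Its level was 118, 128 and 136 scaled FPKM in control and 73.6, 81.7 and 63.0 in Al libraries, so that the highest Al library was well below the lowest control library. The log2 fold change was -0.81 ± 0.13 (SE, n = 3 each), or 0.570 times the control level, with an adjusted P of 0.000604. It was lower under every scaling, at -1.07 with the length trend removed, -1.30 in FPKM as deposited, -1.39 after quantile normalization and -1.60 in TPM. The same size factor divides all genes of a library and leaves their ratios as they are, as do FPKM as deposited and TPM, but not quantile normalization or removal of the length trend. The log2 ratio of Cyc1 to the core protein Uqcrc1 was 0.01, 0.23 and 0.18 in control and -0.93, -0.92 and -0.89 in Al libraries. That of Cyc1 to Uqcrfs1 was 0.97, 0.97 and 0.99 against -0.75, -0.52 and -0.44. Both ratios dropped in all 3 Al libraries, Al replicate 3 included; they were chosen after the values had been seen and were not tested. Cycs, the soluble cytochrome c that takes electrons from Cyc1, was called higher. It had 10.8, 13.9 and 14.8 scaled FPKM in control and 33.9, 31.6 and 19.5 in Al libraries (log2 fold change 1.07 ± 0.21, adjusted P = 0.00229), but was not called in TPM (0.29). Cycs has 10 pseudogene copies that can share its reads, so its level is uncertain, whereas none was found for Cyc1.

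The subunits of complex IV had the largest median change of the complexes. Of its 10 ubiquitous subunits 9 rose and none fell, against 26.2% and 24.4% of all tested genes (39.5% higher among those shorter than 1000 bases), with a median log2 fold change of 1.13, which was 0.35 in TPM. Cox6a1 (chromosome 5, 115345642 to 115348981, minus strand), a regulatory subunit and the gene whose promoter letters are given above, had 253, 251 and 291 scaled FPKM in control and 1000.3, 1001 and 642 in Al libraries. It rose 3.27-fold, with size factors the highest log2 fold change among members called higher (1.71 ± 0.21, adjusted P = 0.000188). In plain means the scarce Cox4i2 rose by a larger factor, from 0.173 to 0.662 scaled FPKM. After quantile normalization Cox6a1 was at 0.79, below Cox20 (1.47), Cox11 (1.45) and Sco1 (1.42). For Cox6a1, 1 pseudogene copy makes the level uncertain. Cox6b1, which sits on the side that faces cytochrome c, went from 189, 203 and 215 to 634, 602 and 389 scaled FPKM (log2 fold change 1.39 ± 0.20, adjusted P = 0.000449). Cox8a, a small subunit of the membrane part, went from 423, 416 and 476 to 1384, 1249 and 733 scaled FPKM (log2 fold change 1.31 ± 0.26). In each of these genes the groups were apart and Al replicate 3 was the lowest Al library. Cox4i1, which binds ATP as part of the regulation of the enzyme, had 542 ± 42.8 scaled FPKM in control and 1219 ± 279.6 in Al libraries (SD, n = 3 each), with a log2 fold change of 1.14 ± 0.23 that was -0.03 after quantile normalization. Cox7c (1.29), Cox6c (1.12) and Cox7a2 (1.11), further small membrane subunits, rose as well.

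Among the ubiquitous subunits of complex IV the smallest changes were those of Cox5b (0.81 ± 0.20), Cox7b (0.77 ± 0.22, but -0.01 in TPM) and Cox5a (0.49 ± 0.22), and Cox5a was the only one not called. It had 185, 191 and 214 scaled FPKM in control and 321, 342 and 192 in Al libraries: Al replicates 1 and 2 were above all controls and Al replicate 3 was among them. Without Al replicate 3 its log2 fold change was 0.77 and it was called higher. Cox5a and Cox6a1 have 1 pseudogene copy each that can share reads. The log2 ratio of Cox6a1 to Cox5a was 0.45, 0.39 and 0.44 in control and 1.64, 1.55 and 1.74 in Al libraries, a pair chosen after the values had been seen and not tested.

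Isoforms typical of other tissues were scarce. Cox6a2, the heart and muscle form of Cox6a1, had 4.48, 4.63 and 5.57 scaled FPKM in control and 8.16, 4.18 and 1.85 in Al libraries, which spread so widely that the log2 fold change of -0.28 ± 0.43 has no stable sign. It was called lower without Al replicate 1 (-0.78), and without Al replicate 3 it was 0.27. Cox4i2, the lung and hypoxia form of Cox4i1, was called higher at 1.35 ± 0.51 (adjusted P = 0.0465) from 0.302, 0.0952 and 0.122 to 1.17, 0.587 and 0.231 scaled FPKM, but Al replicate 3 overlapped control. Its call was lost without control replicate 2 (1.13), control replicate 3 (1.22), Al replicate 1 (0.89) or Al replicate 2 (1.34). Cox7a1 (0.85) and Cox8b (0.37), forms of heart and skeletal muscle, were not called, and Cox7a1 was called higher without Al replicate 1, at 1.26. The testis form Cox6b2 had 0 reads in every control library and 2, 0 and 9 in the Al libraries. It passed the filter through the Al group alone and was not called, but it was called higher without Al replicate 2 (2.27) and with voom on the recovered reads (3.57).

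The balance between isoforms was compared within libraries for the 7 pairs with both genes above 0 in all 6 libraries, by an exact two-sided permutation test that cannot go below 0.1 with 3 libraries against 3. The log2 ratio of Cox6a2 to Cox6a1 was -5.82, -5.76 and -5.71 in control and -6.94, -7.91 and -8.44 in Al libraries, a difference of -2.00 with the groups apart (exact permutation P = 0.1, adjusted P = 0.35). After quantile normalization the shift was smaller, with a log2 fold change of -0.04 for Cox6a2 and 0.79 for Cox6a1. In linear terms, before it, Cox6a2 stood at 1.84% of Cox6a1 in control and 0.461% in Al libraries. Among the 3 genes for subunit c of the ATP synthase ring, the log2 ratio of Atp5g1 to Atp5g3 was -1.59, -1.67 and -1.51 in control and -1.81, -1.77 and -2.22 in Al libraries, a difference of -0.35 (exact permutation P = 0.1, adjusted P = 0.35). For Atp5g2 to Atp5g3 the difference was 0.01 (exact permutation P = 1.0). Differences for the other pairs were 0.69 for Cox4i2 to Cox4i1, -0.17 for Cox7a1 to Cox7a2, -0.11 for Cox7a2l to Cox7a2 and -0.89 for Cox8b to Cox8a, all with overlapping groups.

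Of the 12 tested assembly factors of complex IV, 5 were called higher and 0 lower, with a median log2 fold change of 0.24, which was -0.54 in TPM. Of all tested genes 50.6% were called in either direction and 26.2% higher. In TPM, 6 of the 7 not called (Cox10, Cox14, Cox15, Cox16, Cox17 and Cox18) were called lower, at -0.61 to -1.01. In TPM 53.1% of all tested genes were called lower. With size factors 3 of 4 tested genes for copper delivery rose, too few to set apart from the background of 26.2%. Cox11 (chromosome 11, 90638173 to 90644931, plus strand), which brings copper to the CuB site, had 7.24, 7.12 and 7.07 scaled FPKM in control and 18.7, 19.97 and 19.1 in Al libraries. The Al libraries differed little among themselves and were far above control (log2 fold change 1.42 ± 0.09, adjusted P = 1.17e-05). Sco1, the copper chaperone of the CuA site, went from 3.86, 4.50 and 4.85 to 11.6, 11.6 and 8.53 scaled FPKM (log2 fold change 1.24 ± 0.16, adjusted P = 0.000209), but was not called in TPM (0.46). Cox19, a partner of Cox11 in the intermembrane space, rose by 0.75 ± 0.18 but was not called without Al replicate 1 (0.57) and was at -0.03 in TPM. The other was Cox17, which hands copper to both Sco1 and Cox11. It had 18.3, 14.6 and 17.0 scaled FPKM in control and 15.6, 14.1 and 14.2 in Al libraries (log2 fold change -0.18 ± 0.11, not called), and was called lower in FPKM as deposited (-0.67) and in TPM (-0.96). The log2 ratio of Cox17 to Cox11 was 1.34, 1.04 and 1.27 in control and -0.27, -0.50 and -0.43 in Al libraries, again a pair chosen after the values had been seen and not tested. Sco2, the other CuA chaperone, was at 0 reads in all libraries, which allows up to 3 reads each. In the GENCODE annotation 68.3% of its exons overlap Tymp on the same strand, and Tymp had 2.28 ± 0.149 scaled FPKM in control libraries, and the value of Sco2 is uncertain for that reason.

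Cox20, a chaperone of the mitochondrially encoded subunit 2, rose from 1.62, 2.53 and 1.90 to 4.65, 4.47 and 4.89 scaled FPKM (log2 fold change 1.20 ± 0.18, adjusted P = 0.000558) and was not called in TPM (0.43). Cox7a2l, which helps join complexes III and IV in supercomplexes, rose from 106, 111 and 127 to 243, 235 and 208 scaled FPKM (log2 fold change 1.0 ± 0.13, adjusted P = 0.000201), a call that was lost in FPKM as deposited (0.51), in TPM (0.21) and after quantile normalization (0.34). Of the 34 members called higher, Cox20 and Cox11 were those in which Al replicate 3 was not the lowest Al library. Cox10 (0.03) and Cox15 (0.04), which make heme a, had log2 fold changes close to 0 and overlapping groups. Surf1 (0.30), Cox14 (0.18), Cox18 (-0.11) and Cox16 (-0.43) were not called. Reads of some assembly factors can be shared with neighbours. Exons of Cox20 overlap the antisense gene Hnrnpu over 91.1% of their length, and Hnrnpu itself was called higher (0.59). Exons of Cox16 overlap Gm20498 on the same strand over 56.8%, and those of Sdhaf1 overlap antisense E130208F15Rik over 69.6%. Exons of Cox11 overlap antisense Tom1l1 over 48.3%, and Tom1l1 rose by 2.05 from 0.198 ± 0.0927 to 1.13 ± 0.399 scaled FPKM. The library kit keeps strand, but whether the counting used it is not given in the sources used here.

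**Figure D3:**
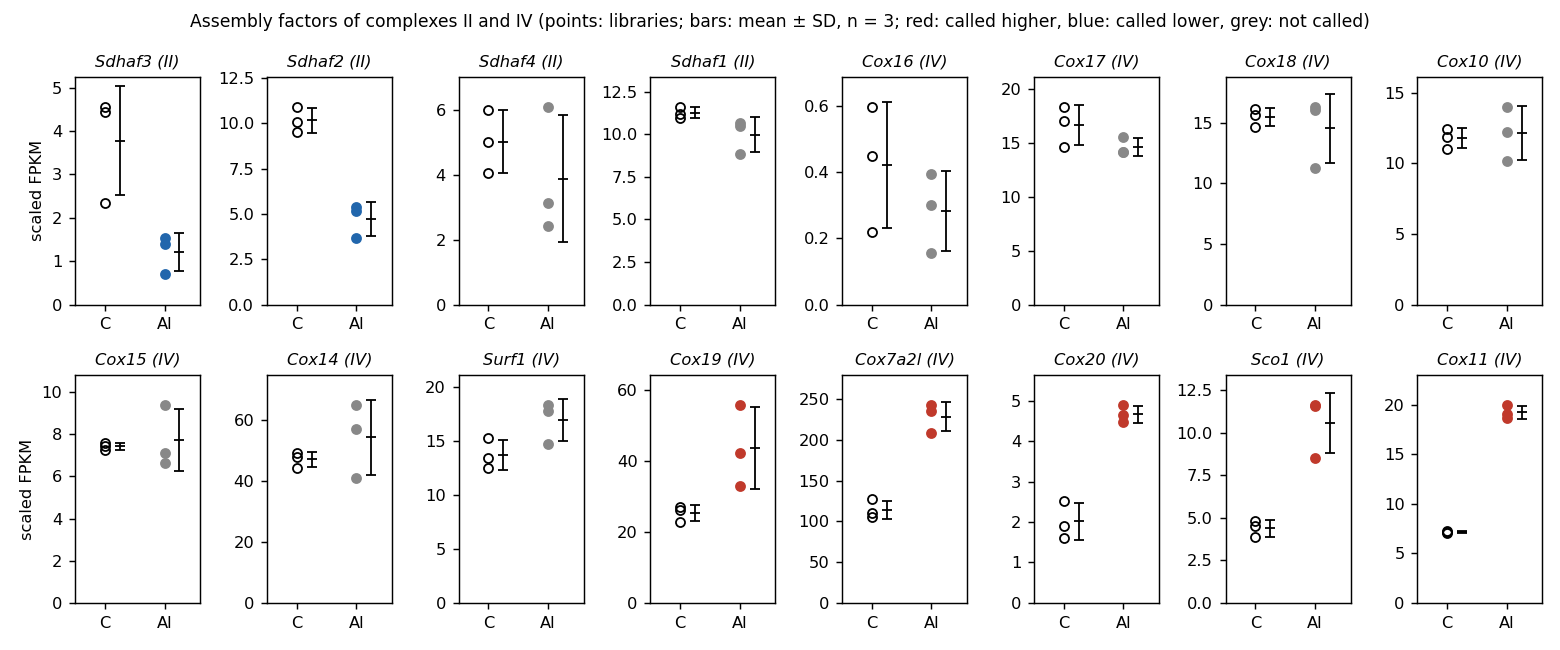
Scaled FPKM (vertical axes start at 0 and differ between panels) of the 16 tested assembly factors in the 3 control (C) and 3 Al libraries; points are libraries and bars are mean ± SD. Sdhaf3 and Sdhaf2 drop to 1.21 and 4.73 in the Al group, Cox11 climbs to 19.2, and the groups of Cox10 and Cox15 overlap.

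Complex V, the ATP synthase, had 12 of its 15 subunits called higher and none lower, against 26.2% and 24.4% of all tested genes, and the median log2 fold change was 0.78, which was -0.0027 in TPM and 0.016 after quantile normalization. The membrane part (Atp5k, Atp5l and Atp5j2) had a median of 1.22 and the catalytic F1 part one of 1.05, while the peripheral stalk had 0.61 and the c-ring genes 0.71. Atp5k, the small membrane subunit e, had 70.0, 91.9 and 85.3 scaled FPKM in control and 296, 256 and 170.2 in Al libraries (log2 fold change 1.52 ± 0.21, adjusted P = 0.000311). Atp5e, subunit epsilon of the central stalk, went from 80.3, 97.9 and 101 to 299.8, 291 and 176 scaled FPKM (log2 fold change 1.43 ± 0.21, adjusted P = 0.000478). Groups did not overlap in either gene. Atp5b, the catalytic beta subunit and the member with the highest level, went from 687, 693 and 759 to 1992, 2016 and 1234 scaled FPKM (log2 fold change 1.26 ± 0.26, adjusted P = 0.00317), but after quantile normalization its log2 fold change was -0.18. Between these and the lowest subunits lay the membrane subunit g, Atp5l (1.22), the delta subunit of F1, Atp5d (1.05), subunit d of the stalk, Atp5h, and subunit f, Atp5j2 (both 1.0), all of them called higher.

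The gamma subunit Atp5c1, the rotating shaft of F1, was not called. It had 47.9, 51.2 and 53.7 scaled FPKM in control and 56.9, 61.7 and 50.3 in Al libraries, with overlapping groups (log2 fold change 0.14 ± 0.11), and its level is uncertain because of 3 pseudogene copies. Atp5f1, subunit b of the peripheral stalk, had 0.37 and Atp5g1 0.36, and neither was called, although Atp5g1 was called higher without Al replicate 3 (0.71). The other c-ring genes Atp5g2 (0.71 ± 0.20) and Atp5g3 (0.71 ± 0.19) rose, Atp5g2 not without Al replicate 1 (0.56), and were at -0.07 and -0.08 in TPM. Exons of Atp5o overlap Donson on the same strand over 54.2% of their length. Atp5j and Atp5o of the peripheral stalk were near the threshold, at 0.62 and 0.61 (-0.17 and -0.18 in TPM). Atp5j was not called without control replicate 1 (0.55), Al replicate 1 (0.45) or Al replicate 2 (0.54), nor was Atp5o (0.58, 0.50 and 0.53). Atp5s fell by 1.55 on the log2 scale (SE 0.56, adjusted P = 0.0378) from 1.02, 0.918 and 0.331 to 0.264, 0.0211 and 0.344 scaled FPKM, with overlapping groups and 15, 1 and 18 reads in the Al libraries. Its call was lost without control replicate 1 (-1.29), control replicate 2 (-1.36) or Al replicate 2 (-0.97). Atp5sl had a log2 fold change of 0.08 ± 0.13 and was not called.

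Set side by side, 27 of 38 subunits were called higher and 1 lower with a median of 0.78, and 5 of 16 tested assembly factors were called higher and 2 lower with a median of 0.03. The assembly median lay at that of all tested genes, 0.03, and the 7 of 16 called in either direction stood near the background of 50.6%. The difference between the classes was not tested, since genes are not replicates. By library, the median assembly factor stood at 0.17, 0.26 and -0.20 in Al replicates 1, 2 and 3. Levels differed as well: the median subunit had a mean of 179 scaled FPKM over all libraries and the median assembly factor 11.3. In control cells the subunits ranged from 38.6 ± 2.81 scaled FPKM (SD, n = 3) for Uqcrc2 to 713 ± 40.1 for Atp5b, and the tested assembly factors from 0.422 ± 0.191 for Cox16 to 114 ± 11.1 for Cox7a2l. In a separate list of 28 assembly genes that the naming rule does not take, mostly for complexes III to V, 5 were called higher and 7 lower (6 with the adjusted P), with a median of -0.08. The background was 26.2% and 24.4%, and no more is read from these counts. The highest among those called were Fdx1l (1.55 ± 0.10), a ferredoxin of heme a synthesis, and the complex III factors Uqcc2 (0.79 ± 0.25, but 0.00 in TPM) and Uqcc1 (0.68 ± 0.15, but -0.09 in TPM). The lowest were Smim20 (-2.49 ± 0.57), a factor for complex IV, Oma1 (-1.34 ± 0.25), an inner membrane protease, and Cmc4 (-1.07 ± 0.42, adjusted P = 0.0531).

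These directions depend on how libraries are brought to a common scale. The median of all tested genes was 0.03 with size factors, -0.43 in FPKM as deposited and -0.72 in TPM. The subunit median was 0.78, 0.29 and -0.01 under these scalings, and the assembly median 0.03, -0.45 and -0.75. Relative to the median of all genes the subunits were higher by 0.75, 0.72 and 0.71, and the assembly factors by 0.00, -0.02 and -0.03. These scalings differ by the same factor for all genes of a library, so the gaps could hardly change, apart from the pseudocount. Their closeness is therefore no check of the gaps, unlike values after quantile normalization or with the length trend removed. Quantile normalization, which forces libraries to the same distribution, left subunits 0.16 above and assembly factors -0.03 from the median of all genes. Under it 9 members were called higher and 4 lower, against a background of 22.2% and 24.2%. In FPKM as deposited 15 were called higher and 8 lower, against 14.0% and 42.0%. In TPM 5 were called higher and 17 lower, against a background of 9.31% and 53.1%. Of the members not called with size factors, Atp5c1, Atp5sl, Cox6a2, Sdha and Uqcrb were also called lower in TPM, beside the assembly factors given above. The calls of 8 members held under each scaling, filter, pseudocount and left-out library: Cox6a1, Cox6b1, Atp5k, Atp5e and Cox11 higher, and Cyc1, Sdhaf2 and Sdhaf3 lower. In TPM 9 of the 38 calls held, these and that of Atp5s, so the other 29 members called with size factors were not called there. With a threshold of 1 in place of 0.58, all of these but Cyc1 were called, and 19 members were higher and 3 lower, against a background of 16.0% and 14.1%.

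**Figure D4:**
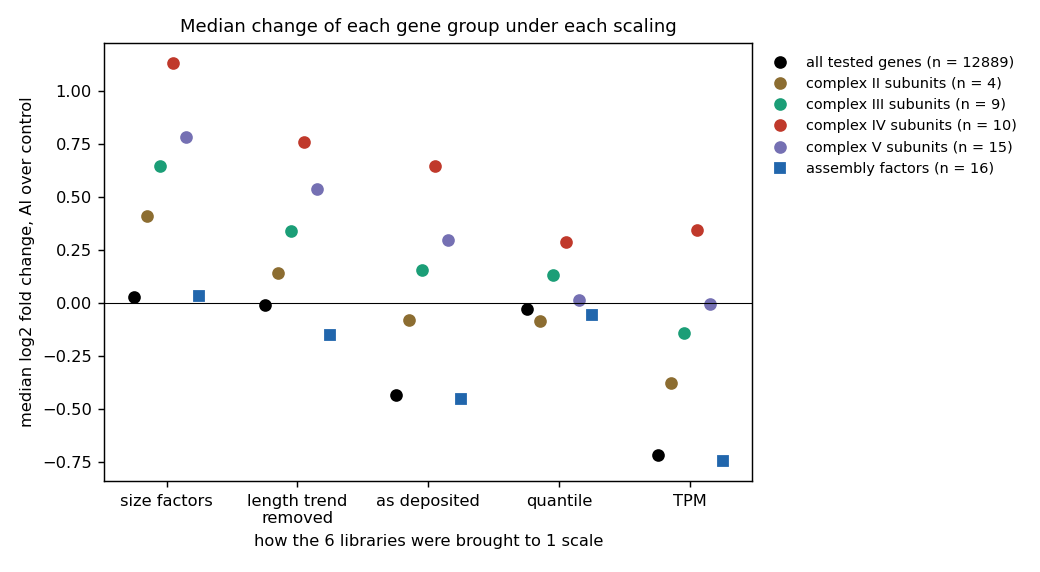
Median log2 fold change (Al over control, vertical axis) of each gene group under each scaling of the 6 libraries; n is the number of tested genes. All groups are lower in TPM than with size factors, and in TPM all genes reach -0.72 and assembly factors -0.75. Complex IV subunits stay the highest of the 6 plotted groups under each of the 5 scalings. Size factors, FPKM as deposited and TPM differ by the same factor for all genes of a library, so between them the order could hardly change.

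Transcript length moved with the comparison. The 898 tested genes shorter than 1000 bases had a median log2 fold change of 0.51, against 0.00 for the 11991 longer ones. Subunit transcripts are short, with a median recovered length of 774 bases, against 3301 bases for all tested genes and 1243 for assembly factors. The 22 subunits under 1000 bases had a median of 1.0 with 19 called higher, against 39.5% of all tested genes of such length. The 16 longer ones had 0.60 with 8 called higher, against 25.2%. With the length trend of all genes removed, the subunit median was 0.44 with 15 called higher (background 24.5% higher and 25.6% lower), and the assembly median was -0.15. Complex II, III, IV and V subunits then had medians of 0.14, 0.34, 0.76 and 0.54. Pseudogene copies were found for 18 members, most for Atp5l (13), Cycs (10), Atp5h (6) and Atp5g1 (5). Uqcrb and Cox7b had 4 each, Atp5c1 3, and Atp5j2, Cox6c, Uqcr11 and Uqcrh 2 each, while Atp5f1, Atp5k, Cox20, Cox5a, Cox6a1, Uqcr10 and Uqcrq had 1. Such genes can share reads with their copies. The 22 subunits without a copy had a median of 0.72, with 16 called higher and 1 lower.

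Complex I and ribosomal protein genes served as comparison groups, beside the background of 26.2% called higher and 24.4% lower. For complex I subunits, symbols of Nduf with a, b, c, s or v and a digit were taken, a pattern that can hold genes of another complex. Of these genes 16 of 37 were called higher and 2 lower. Their median was 0.54 (-0.24 in TPM), between those of complexes II (0.41) and III (0.65). Mitochondrial ribosomal proteins had 30 of 77 called higher and 6 lower, with a median of 0.37 (-0.40 in TPM). For cytosolic ribosomal proteins, likewise short and abundant in the median, symbols of Rpl or Rps with a digit, a or p were taken. That pattern also fits genes of other kinds, such as kinases whose symbols begin with Rps6k. Of these genes 88 of 97 were called higher and 3 lower, with a median of 1.61 (0.83 in TPM). Positive medians were thus also found outside complexes II to V.

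Of 12 regulators known to act on these genes, 3 were called higher and 3 lower, shares near the background of 26.2% and 24.4%. Ppargc1a, the coactivator PGC-1α, had 6.74, 5.83 and 5.45 scaled FPKM in control and 4.22, 4.23 and 4.92 in Al libraries, a log2 fold change of -0.42 ± 0.14 that did not pass the size threshold (adjusted P = 0.0243). This depended on the scaling, since the log2 fold change of Ppargc1a was past the threshold in FPKM as deposited (-0.90) and in TPM (-1.19), but not after quantile normalization (-0.16). The factors that read the promoter letters above were not called in the case of Nrf1 (0.15 ± 0.18) and Gabpa (-0.00 ± 0.13), whereas in TPM both were past the lower threshold, at -0.62 and -0.78. Tfam, which packs and transcribes mitochondrial DNA, had 0.32 ± 0.10 and was not called either. Yy1 rose, from 18.4, 20.4 and 19.2 to 62.7, 61.0 and 47.0 scaled FPKM, and so did Gabpb1 (0.81), the partner of Gabpa, and Tfb2m (0.99), a mitochondrial transcription factor, with log2 fold changes in TPM of 0.76, 0.04 and 0.22. Tfb1m (-1.67), a methyltransferase of mitochondrial ribosomal RNA, the nuclear receptor Esrra (-1.25) and the coactivator Ppargc1b (-0.66) fell. Ppargc1b was short of the size threshold after quantile normalization (-0.36) and with the length trend removed (-0.42). The last 6 were named after their values had been seen.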

How the data were processed

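The authors deposited 1 FPKM value per gene symbol and library for the 6 input libraries. Per the paper, reads were cleaned with Trimmomatic and SortMeRNA and aligned with HISAT2 to GRCm38, whereas the submitters' processing notes name fastp, HISAT2, HTSeq and GRCm39; the program that made the FPKM is not given in the sources used here. Libraries whose labels carry another letter were taken as Al because columns named Al in the supplementary data hold the same values for 1999 of 1999 genes (within 0.01%). Members and gene lists were chosen with earlier results of these data known.

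Whole reads and relative depth were recovered from the steps of the FPKM for 17688 of 17688 genes above 0; recovered lengths are approximate. FPKM were divided by median-of-ratios size factors (0.802 to 1.21). limma 3.58.1 in R 4.3.3 (lmFit, eBayes with trend) was run on log2(scaled FPKM + 0.1) for the 12889 genes with a mean of at least 0.1 FPKM, and P values were adjusted over all of these by the Benjamini-Hochberg method. The authors used DESeq2, which needs counts and was not run. On simulated data for 12808 genes, 100% of 195 genes with a simulated log2 change of 2 were called and 1.134% of unchanged genes. The simulation gave all genes the same spread and changed few of them, up and down in equal numbers. It held no length trend and no library that stood apart, so these shares do not carry over to the real libraries or to smaller changes. P values measure the spread between the 3 cultures of each group as the labels number them.

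Named were all genes of complex II, Cycs, the assembly factors and isoform pairs, the 3 subunits with the highest and the 3 with the lowest change in complexes III, IV and V, 4 regulators and 6 outside assembly genes; any other gene with a value was named after its values were seen. Positions are from GENCODE vM21 on GRCm38 and promoters from RefSeq on GRCm38.p6. Pseudogene copies were transcripts with at least 90% identity over at least 150 bases and 50% of either transcript (minimap2 2.31-r1302). Alternatives covered scaling (as deposited, TPM, quantile), pseudocounts of 0.01 and 1, filters, the trend, voom on recovered reads, a length trend, a replicate block, thresholds and each library left out.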

Additional observations from a re-analysis of the deposited data

How the results depend on the processing

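Depth in the Al group and 3 libraries a group limit the precision, and members with few reads (Sdhaf3, Atp5s, Cox16 and the tissue isoforms) have the widest errors. No member turned to the opposite call under any alternative: of the 38 called, 19 kept their call in FPKM as deposited, 9 in TPM, 13 after quantile normalization, 25 with the length trend removed, 36 with a pseudocount of 1, 38 with voom, and 31 to 38 with a library left out. Same-numbered libraries did not vary together (correlations of -0.08, -0.06 and -0.11), so the numbers were not taken as pairs; with a replicate block the counts were 34 members called higher and 4 lower and the subunit median 0.78, and 38 of 38 calls were kept. The cause of the changes between scalings was not tested.

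The scaling had the largest effect. Counts with size factors were 34 members called higher and 4 lower, 27 subunits called higher, and 5 assembly factors called higher and 2 lower. Of 62 members 52 had a positive log2 fold change, against 39 in FPKM as deposited, 26 in TPM, 38 after quantile normalization and 45 with the length trend removed. Signs that turned are not given for every member. They are given only for the genes set to be named, as listed in the account of the processing, with regulators and outside assembly genes included. In FPKM as deposited these came to 15 members called higher, 8 members called lower, 11 subunits called higher, 3 assembly factors called higher, 6 assembly factors called lower, 0.29 for the median log2 fold change of subunits and -0.45 for the median log2 fold change of assembly factors. The sign turned, in FPKM as deposited, to -0.35 for Atp5c1, -0.12 for Atp5f1, -0.13 for Atp5g1, -0.45 for Cox10, -0.31 for Cox14, -0.44 for Cox15, -0.0565 for Cox8b, -0.39 for Sdha, -0.19 for Sdhd, -0.18 for Surf1, -0.30 for Uqcrb, -0.25 for Uqcrc1, -0.33 for Nrf1 and -0.16 for Tfam. In TPM these came to 5 members called higher, 17 members called lower, 4 subunits called higher, 1 assembly factor called higher, 10 assembly factors called lower, -0.00859 for the median log2 fold change of subunits and -0.75 for the median log2 fold change of assembly factors. The sign turned, in TPM, to -0.65 for Atp5c1, -0.42 for Atp5f1, -0.43 for Atp5g1, -0.0734 for Atp5g2, -0.0804 for Atp5g3, -0.75 for Cox10, -0.61 for Cox14, -0.74 for Cox15, -0.0307 for Cox19, -0.29 for Cox5a, -0.0145 for Cox7b, -0.32 for Cox8b, -0.68 for Sdha, -0.26 for Sdhb, -0.10 for Sdhc, -0.49 for Sdhd, -0.48 for Surf1, -0.60 for Uqcrb, -0.55 for Uqcrc1, -0.62 for Nrf1, -0.46 for Tfam and -0.094 for Uqcc1. After quantile normalization these came to 9 members called higher, 5 subunits called higher, 3 assembly factors called higher, 0.13 for the median log2 fold change of subunits and -0.0565 for the median log2 fold change of assembly factors. The sign turned, after quantile normalization, to -0.18 for Atp5b, -0.28 for Atp5c1, -0.19 for Atp5f1, -0.28 for Atp5g1, -0.0745 for Atp5g3, -0.23 for Cox14, -0.0311 for Cox4i1, -0.20 for Cox5a, -0.38 for Sdha, -0.20 for Sdhd, -0.27 for Uqcrb, -0.39 for Uqcrc1 and 0.16 for Gabpa. With the length trend removed these came to 21 members called higher, 15 subunits called higher, 0.44 for the median log2 fold change of subunits and -0.15 for the median log2 fold change of assembly factors. The sign turned, with the length trend removed, to -0.0235 for Atp5c1, -0.0336 for Cox10, -0.20 for Cox14, -0.15 for Cox8b, -0.11 for Surf1, -0.27 for Uqcrb and 0.0561 for Gabpa. With a log2 threshold of 1 these came to 19 members called higher, 14 subunits called higher and 3 assembly factors called higher. Leaving out each library in turn, values that changed sign ranged from -0.11 to 0.0596 for the log2 fold change of Gabpa, -0.0857 to 0.13 for the median log2 fold change of assembly factors, -0.0697 to 0.16 for the log2 fold change of Cox10, -0.10 to 0.14 for the log2 fold change of Cox15, -0.19 to 0.0748 for the log2 fold change of Cox18, -0.78 to 0.27 for the log2 fold change of Cox6a2, -0.0277 to 0.29 for the log2 fold change of Nrf1, -0.84 to 0.41 for the isoform ratio Cox7a1/Cox7a2 and -0.0187 to 0.0539 for the isoform ratio Atp5g2/Atp5g3.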
